A study of Mus musculus with 48 samples.

Results

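Knockout and control jejunum were compared at CT9, the circadian time 9 h after the start of the animals' subjective day, in constant darkness. The comparison rests on 7 of the 47 libraries of the series that have a column in the deposited table: 3 from knockout mice (Bmal1iec-/-, replicates 2, 3 and 4) and 4 from control mice (bmal1fl/fl, replicates 1 to 4). They were chosen by genotype and time in the labels. The labels give a further knockout CT9 library, replicate 1, which was not analysed here. Control mice carry floxed alleles of Bmal1, and the name of the knockout places its loss in intestinal epithelial cells. The other 40 libraries, at CT1, CT5, CT13, CT17 and CT21, entered the fit and were used to ask whether an effect at CT9 differed from that at other times. RNA came from whole jejunum, a stretch of small intestine. Muscle, nerves, vessels and immune cells of the gut wall were therefore sequenced with the epithelium, and by the name of the knockout they keep the gene in both genotypes. The sources used here do not give what drives the deletion, nor the age, sex and feeding of the mice. They also do not say that libraries are of separate mice, and p-values then measure only how these samples spread, which may be technical.

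The clock of mammalian cells is a loop of transcription factors. BMAL1 (gene Arntl) pairs with CLOCK or NPAS2 and switches on genes that carry E-boxes, among them the Per, Cry, Nr1d and PAR bZIP genes. PER and CRY proteins then inhibit the pair. REV-ERB proteins (Nr1d1 and Nr1d2) repress Arntl itself through ROR elements, which the ROR activators also bind. The PAR bZIP factors DBP, TEF and HLF pass the rhythm on through D-boxes, where NFIL3 acts against them. In the small intestine this clock is known to run in the epithelium, where many sugar, peptide and ion transporters change over the day.

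Values are CPM, counts scaled to a common library total, given per library in the order of knockout replicates 2, 3 and 4 and control replicates 1, 2, 3 and 4. Total counts were 5.46 to 6.36 M in the knockout libraries and 5.94 to 6.06 M in the control libraries. A library at 0 for a gene can still hold up to 3 counts' worth of it, which is 0.472 to 0.550 CPM in knockout and 0.495 to 0.505 CPM in control before scaling. No CT9 libraries of a group agreed within sampling noise (smallest chi-square per degree of freedom 5.00 over 9 pairs). All 20 genes of the hexose transport and disaccharidase list were measured, at a summed 15982 to 20060.0 CPM in knockout and 22522 to 28019 CPM in control, so that transcripts of absorptive epithelium were abundant in all 7 libraries. Control replicate 1 held far more follicle B cell transcripts than the other libraries, and control replicate 4 was low in T cell and MHC class II transcripts. Both are described with the immune genes.

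Of 15646 genes tested, 563 (3.60%) passed an adjusted p of 0.05 in edgeR's quasi-likelihood test, 233 higher in knockout (1.49%) and 330 lower (2.11%). At least 1.5-fold were 196 of the higher genes (1.25% of all genes) and 298 of the lower (1.90%). At an unadjusted p under 0.05 there were 1911. The median log2 fold change (knockout minus control) over all genes was 0.00, and the median size among the called genes was 1.05. Libraries of the genotypes did not overlap in 467 of the 563 called genes, against 1930 (12.3%) of all genes (6.61% higher and 5.73% lower in knockout). Leaving out control replicate 1 left 299 called genes (1.92%), 170 higher (1.09%) and 129 lower (0.827%), of which 166 and 129 were among the 233 and 330. The number of lower genes thus moved by over 1.5 times with that library, and it also did so without knockout replicate 2, 3 or 4 (209, 143 and 113 lower), while the number of higher genes fell to 145 without knockout replicate 4.

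The targeted gene stood higher, not lower, in knockout at this time. Arntl (BMAL1, ENSMUSG00000055116.8) (mm10) lies on chromosome 7, positions 113207465 to 113314126, plus strand. It measured 26.1, 26.7 and 31.8 CPM in knockout, against 11.3, 8.48, 11.3 and 10.6 CPM in control. All 3 knockout libraries lay above all 4 control libraries, at 28.2 ± 3.11 CPM in knockout (SD, n = 3) and 10.4 ± 1.34 CPM in control (SD, n = 4) (log2 fold change 1.43, SE 0.16, adjusted p = 1.6e-08). Knockout means lay between 27.3 and 31.4 CPM at all 6 times. Control Arntl was near the low point of its day at CT9, with means ± SD of 75.5 ± 2.99 (CT1), 30.4 ± 3.72 (CT5), 10.4 ± 1.34 (CT9), 11.5 ± 2.02 (CT13), 46.98 ± 3.88 (CT17) and 78.4 ± 11.3 (CT21) CPM (n = 4 each). The effect was 1.43 at CT9 and −0.39 in the mean of the other times (difference 1.82, SE 0.17, adjusted p = 2.1e-09). Counts cover the gene as a whole and the loss of single exons was not measured, so they check the labels only in part. In whole tissue, fewer cells of a type and less RNA per cell cannot be told apart, here or below.

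Among the other activators of the clock, Npas2 rose and Clock and Rora did not pass. Npas2, which can take the place of CLOCK beside BMAL1, measured 79.1, 71.8 and 90.5 CPM in knockout, against 24.5, 16.8, 11.5 and 23.9 CPM in control. All knockout libraries lay above all control libraries (log2 fold change 2.07, SE 0.17, adjusted p = 1.0e-11). Clock measured 100.4, 77.5 and 111 CPM in knockout, against 89.1, 86.9, 88.00 and 102 CPM in control. Its groups overlapped (0.07, SE 0.27, adjusted p = 0.984), as did those of Rora, a ROR factor, at 8.24 ± 0.883 CPM in knockout and 8.07 ± 2.02 CPM in control (0.03, SE 0.30, adjusted p = 0.995).

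Of the 11 repressors, 5 fell and 4 rose, against 2.11% and 1.49% of all genes, and 2 did not pass. Without single CT9 libraries in turn, 4 to 5 fell and 3 to 4 rose. Both REV-ERB genes fell. Nr1d1 (on chromosome 11, positions 98767932 to 98775333, minus strand) measured 24.2, 25.4 and 13.9 CPM in knockout, against 192, 111, 119 and 117 CPM in control. Control replicate 1 was the highest and knockout replicate 4 the lowest, and the mean was 6.37 times higher in control (log2 fold change −2.67, SE 0.22, adjusted p = 1.0e-11). Leaving out control replicate 1 gave −2.44, adjusted p = 5.4e-11. Nr1d2 measured 39.3, 31.9 and 20.5 CPM in knockout, against 159.6, 151, 140.2 and 140.4 CPM in control, without overlap and with 4 control libraries that lay close together (log2 fold change −2.27, SE 0.25, adjusted p = 1.7e-08).

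Per3, a member of the PERIOD family, measured 21.8, 17.5 and 16.8 CPM in knockout, against 68.5, 70.3, 71.9 and 53.4 CPM in control, again without overlap (log2 fold change −1.82, SE 0.21, adjusted p = 5.3e-08). Ciart (CHRONO), which represses the BMAL1 complex, was low in all libraries, at 4.15, 4.60 and 2.77 CPM in knockout, against 14.3, 14.8, 12.6 and 11.6 CPM in control. Ciart thus fell (log2 fold change −1.78, SE 0.32, adjusted p = 2.6e-04). Per1 measured 34.5, 21.8 and 21.99 CPM in knockout, against 54.3, 61.6, 56.7 and 43.6 CPM in control. Its groups did not overlap (log2 fold change −1.05, SE 0.30, adjusted p = 0.032), but without knockout replicates 3 and 4 or control replicates 1, 2 and 3 in turn its adjusted p was 0.066 to 0.201. Per2 overlapped between the genotypes, at 46.05, 48.1 and 72.1 CPM in knockout, against 65.8, 88.1, 60.7 and 95.3 CPM in control (−0.49, SE 0.29, adjusted p = 0.568).

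The 4 repressors that rose were Nfil3, Cry1, Cry2 and Bhlhe40. Nfil3, which competes with the PAR bZIP factors at D-boxes, measured 24.8, 22.9 and 14.04 CPM in knockout, against 6.58, 4.58, 4.79 and 3.20 CPM in control, 4.29 times higher in knockout by the means (log2 fold change 2.10, SE 0.26, adjusted p = 2.0e-07). Cry1 measured 43.5, 50.9 and 68.6 CPM in knockout, against 19.1, 20.02, 14.1 and 27.3 CPM in control. Control replicate 4 was the highest of its group and still below the lowest knockout library (log2 fold change 1.43, SE 0.23, adjusted p = 2.5e-05). Cry2 rose less, at 44.9 ± 4.84 CPM in knockout and 27.4 ± 2.09 CPM in control (log2 fold change 0.71, SE 0.16, adjusted p = 0.0037). Bhlhe40 (DEC1), an E-box binding repressor, stood at 136 ± 15.6 CPM in knockout and 86.6 ± 7.05 CPM in control (log2 fold change 0.65, SE 0.15, adjusted p = 0.0072), and without knockout replicate 3 its adjusted p was 0.061. Its paralog Bhlhe41 was near 3 CPM and overlapped (−0.32, SE 0.33, adjusted p = 0.865).

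All 3 PAR bZIP output genes fell. Dbp (on chromosome 7, positions 45705088 to 45710203, plus strand) measured 18.7, 19.1 and 10.3 CPM in knockout, against 98.2, 80.8, 72.7 and 57.2 CPM in control. All knockout libraries lay below all control libraries, and the mean was 4.81 times higher in control (log2 fold change −2.26, SE 0.22, adjusted p = 4.8e-10). Tef measured 72.4, 75.5 and 64.3 CPM in knockout, against 200.1, 216, 186 and 172 CPM in control, with little spread inside either group (log2 fold change −1.45, SE 0.14, adjusted p = 6.6e-10). Hlf measured 17.3, 13.4 and 15.7 CPM in knockout, against 22.6, 34.6, 30.2 and 30.3 CPM in control. Hlf thus fell (log2 fold change −0.93, SE 0.21, adjusted p = 0.0062); without knockout replicate 3 its adjusted p was 0.075. Of the 10 genes of clock kinases and partners, 1 rose and 2 fell, against 1.49% and 2.11% of all genes. Fbxl21, an F-box protein that acts on cryptochromes, measured 7.27, 5.19 and 6.65 CPM in knockout, against 1.69, 1.53, 1.60 and 2.53 CPM in control. Fbxl21 thus rose (log2 fold change 1.78, SE 0.28, adjusted p = 1.9e-05). Usp2, a deubiquitinase that is itself a clock output, stood at 49.99 ± 3.24 CPM in knockout and 75.8 ± 3.94 CPM in control (log2 fold change −0.60, SE 0.16, adjusted p = 0.019), though without knockout replicates 2, 3 and 4 or control replicate 2 in turn its adjusted p was 0.051 to 0.11. Por, the electron donor of cytochromes P450, stood at 87.5 ± 5.81 CPM in knockout and 160.5 ± 31.4 CPM in control (log2 fold change −0.88, SE 0.23, adjusted p = 0.016), and without knockout replicates 2, 3 and 4 or control replicate 1 in turn its adjusted p was 0.063 to 0.094.

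**Figure D1:**
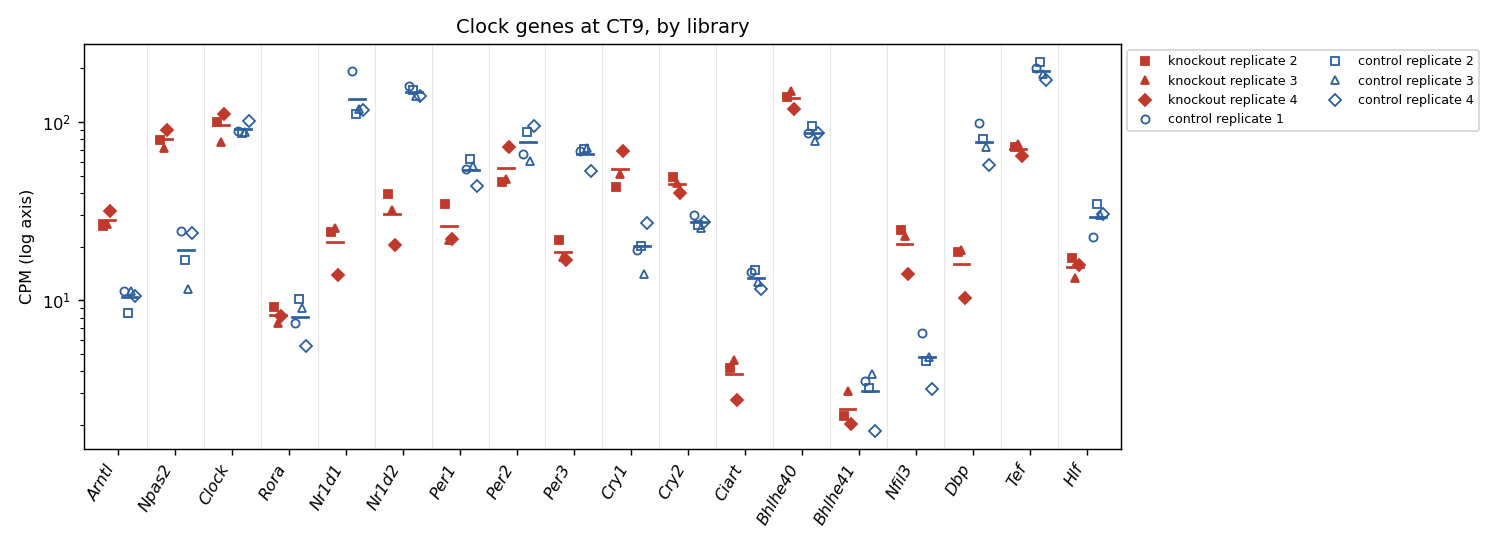
Level of each of 18 clock genes at CT9 in CPM (log axis), with 1 point per library (filled red, knockout; open blue, control) and bars at the group means. Arntl, Npas2, Cry1, Cry2, Bhlhe40 and Nfil3 stood higher in all 3 knockout libraries than in any control library, and Nr1d1, Nr1d2, Per1, Per3, Ciart, Dbp, Tef and Hlf lower.

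Many clock genes are known targets of BMAL1, REV-ERB, ROR or PAR bZIP proteins. The windows of 250 bases before to 50 after the RefSeq starts of the clock genes (GRCm38.p6) were searched on both strands for an E-box (CACGTG), a ROR element (AANT followed directly by AGGTCA or GGGTCA) and a D-box (TTATGNAA). The motifs were searched separately, and none of them contains another. Of the 19 clock genes 16 had a window. An E-box was found in 3 of the 8 genes that fell (Ciart, Tef and Per1), in 1 of the 5 that rose and had a window (Cry1) and in 1 that did not pass (Bhlhe41), against 8.09% of all 27025 genes with a window. A D-box was found in Per3 and Per1, against 3.99% of genes, and a ROR element only in Arntl, among these 16, against 0.514%. Stretches that hold these motifs in genes that moved are shown 5′ to 3′ on the gene's strand, with the motif named in capitals. The D-box of Per1 and the E-box of Bhlhe41 are not shown.
Ciart, 3 E-boxes, chr3:95882229-95882384, minus strand: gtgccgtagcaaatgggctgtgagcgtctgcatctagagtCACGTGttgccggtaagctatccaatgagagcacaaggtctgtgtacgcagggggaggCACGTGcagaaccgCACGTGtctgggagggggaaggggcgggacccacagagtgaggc
Tef, E-box at the first start, chr15:81802506-81802591, plus strand: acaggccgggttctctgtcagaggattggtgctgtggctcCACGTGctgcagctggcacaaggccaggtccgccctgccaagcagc
Tef, E-box at the second start, chr15:81811236-81811321, plus strand: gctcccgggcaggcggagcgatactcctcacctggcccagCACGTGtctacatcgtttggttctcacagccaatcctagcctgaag
Per1, E-box, chr11:69098743-69098828, plus strand: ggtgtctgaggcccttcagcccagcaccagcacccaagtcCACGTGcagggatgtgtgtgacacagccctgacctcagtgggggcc
Per3, 2 D-boxes, chr4:151044776-151044910, minus strand: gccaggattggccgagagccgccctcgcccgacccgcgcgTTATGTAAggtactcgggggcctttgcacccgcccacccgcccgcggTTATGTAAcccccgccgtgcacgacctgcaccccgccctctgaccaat
Cry1, E-box, chr10:85185069-85185154, minus strand: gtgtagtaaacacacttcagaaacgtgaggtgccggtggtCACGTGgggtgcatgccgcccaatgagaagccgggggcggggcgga
Arntl, ROR element, chr7:113207528-113207557, plus strand: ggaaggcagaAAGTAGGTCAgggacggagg

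The E-boxes thus stood before genes of both directions: Ciart, Tef and Per1 were lower in knockout and Cry1 was higher. No match was found in the windows of Dbp, Nr1d1 and Nr1d2, which says only that these letters are absent from those 300 bases. A match is a description of the sequence, and binding was not measured.

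Genes of nutrient and ion transport moved in both directions. The phosphate and sulfate list had 14 measured genes, of which 1 rose and 2 fell (median log2 fold change −0.06, against 0.00 over all genes). Of all genes, 1.49% rose and 2.11% fell. Slc34a2 (on chromosome 5, positions 53038081 to 53071664, plus strand), which carries phosphate with sodium across the brush border, measured 1021, 819.8 and 879 CPM in knockout, against 46.6, 38.2, 29.5 and 55.05 CPM in control. All knockout libraries lay far above all control libraries, and the means were 906 ± 103 CPM in knockout (SD, n = 3) and 42.3 ± 10.96 CPM in control (SD, n = 4) (log2 fold change 4.42, SE 0.31, adjusted p = 2.1e-13). Slc13a1, a sodium and sulfate cotransporter, measured 19.4, 13.7 and 17.2 CPM in knockout, against 57.7, 106, 70.3 and 80.97 CPM in control. Slc13a1 thus fell (log2 fold change −2.24, SE 0.32, adjusted p = 6.5e-06). Slc20a1, a widely expressed phosphate carrier, also fell, averaging 29.03 ± 3.86 CPM in knockout and 58.6 ± 12.1 CPM in control (log2 fold change −1.01, SE 0.18, adjusted p = 1.9e-04).

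Of 20 genes of sugar transport and digestion, 5 fell and 1 rose (median −0.21), against 2.11% and 1.49% of all genes. Slc5a1 (SGLT1, on chromosome 5, positions 33104219 to 33162870, plus strand), the sodium-coupled carrier that takes up glucose and galactose, measured 2519, 1888 and 2730.0 CPM in knockout, against 4435, 4939, 3922 and 4224 CPM in control. All knockout libraries lay below all control libraries, and knockout replicate 3 was the lowest (log2 fold change −0.88, SE 0.15, adjusted p = 8.7e-05). Slc2a5 (GLUT5), the fructose carrier, measured 54.01, 59.7 and 49.5 CPM in knockout, against 237, 208, 182 and 157 CPM in control, 3.60 times higher in control by the means (log2 fold change −1.85, SE 0.20, adjusted p = 5.2e-09). Slc2a7, a related hexose carrier, measured 39.8, 28.5 and 43.4 CPM in knockout, against 105, 96.6, 79.8 and 71.7 CPM in control. Slc2a7 thus fell (log2 fold change −1.25, SE 0.19, adjusted p = 1.2e-05). Mgam, the brush-border maltase-glucoamylase, measured 2987, 1893 and 3298 CPM in knockout, against 6369.8, 7279, 5750.5 and 5939.5 CPM in control. Mgam thus fell (log2 fold change −1.22, SE 0.20, adjusted p = 7.3e-05). The fifth was Slc5a4a, named here to complete the count (−0.80, SE 0.23, adjusted p = 0.035). It lost its call without control replicate 1 or 2 or knockout replicate 2 or 3 in turn, and with no filter. In each of these settings 4 of the list were lower. G6pc, the catalytic subunit of glucose-6-phosphatase, went the other way, at 78.4, 82.8 and 84.1 CPM in knockout, against 7.26, 16.6, 11.5 and 30.8 CPM in control. Its knockout libraries lay close together, and control replicate 4 was the highest of its group (log2 fold change 2.30, SE 0.27, adjusted p = 9.4e-08). In a fit to the 7 CT9 libraries alone its adjusted p was 0.065. The lactase gene Lct (−0.08, adjusted p = 0.961) and the sucrase-isomaltase gene Sis (−0.35, adjusted p = 0.822) did not pass.

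Genes of ion and water transport moved in both directions. Of 23 measured genes for sodium, chloride, proton and water transport, 3 fell and 2 rose (median −0.15), against 2.11% and 1.49% of all genes. Atp1b1, the beta subunit of the sodium pump, stood at 1231 ± 174 CPM in knockout and 1948 ± 180.4 CPM in control (log2 fold change −0.66, SE 0.16, adjusted p = 0.0093); without knockout replicate 3 its adjusted p was 0.119. The water channel gene Aqp1, chosen after its values were seen, also fell (−0.55, SE 0.16, adjusted p = 0.042). Slc9a3 (NHE3), which exchanges sodium for protons at the brush border, measured 757, 405 and 600.0 CPM in knockout, against 185, 281, 206 and 206 CPM in control. Slc9a3 thus rose (log2 fold change 1.42, SE 0.25, adjusted p = 2.6e-04). Aqp8, another water channel, measured 6.58, 28.3 and 8.13 CPM in knockout, against 0.169, 0.170, 0 and 0.168 CPM in control. Control held 3 Aqp8 counts in all 4 libraries together, so that the ratio of knockout to control was 126 with a 95% counting interval of 42.6 to 613, and knockout replicate 3 was far above the other knockout libraries (log2 fold change 6.62, SE 0.81, adjusted p = 2.7e-07).

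Carriers of peptides and amino acids were lower where they passed, with 1 exception. Of 24 measured, 4 fell and 1 rose (median −0.37), against 2.11% and 1.49% of all genes. Slc15a1 (PEPT1), which takes up small peptides with protons, measured 570.4, 414 and 658 CPM in knockout, against 1105, 1214, 846 and 1077 CPM in control. Slc15a1 thus fell (log2 fold change −0.95, SE 0.18, adjusted p = 6.5e-04). Slc36a1, a proton-coupled carrier of small amino acids, stood at 282 ± 89.3 CPM in knockout and 547 ± 89.2 CPM in control (log2 fold change −0.96, SE 0.21, adjusted p = 0.0030), and without knockout replicate 3 its adjusted p was 0.082. Ace, a peptidase of the brush border, averaged 1564 ± 301 CPM in knockout and 2846 ± 325 CPM in control (log2 fold change −0.86, SE 0.18, adjusted p = 0.0023); without knockout replicate 3 its adjusted p was 0.055. Slc7a8, a neutral amino acid exchanger named to complete the count, was the other (−0.69, SE 0.15, adjusted p = 0.0032). Without knockout replicate 3, the lowest library for Slc15a1, Slc36a1 and Ace, 1 of the list was still lower. This was Slc15a1, so Slc7a8 also lost its call there. Slc38a8, of a family of sodium-coupled neutral amino acid carriers, measured 5.54, 4.3 and 4.99 CPM in knockout, against 0.675, 0.170, 0.319 and 0.842 CPM in control. Slc38a8 thus rose (log2 fold change 3.24, SE 0.48, adjusted p = 8.4e-06).

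**Figure D2:**
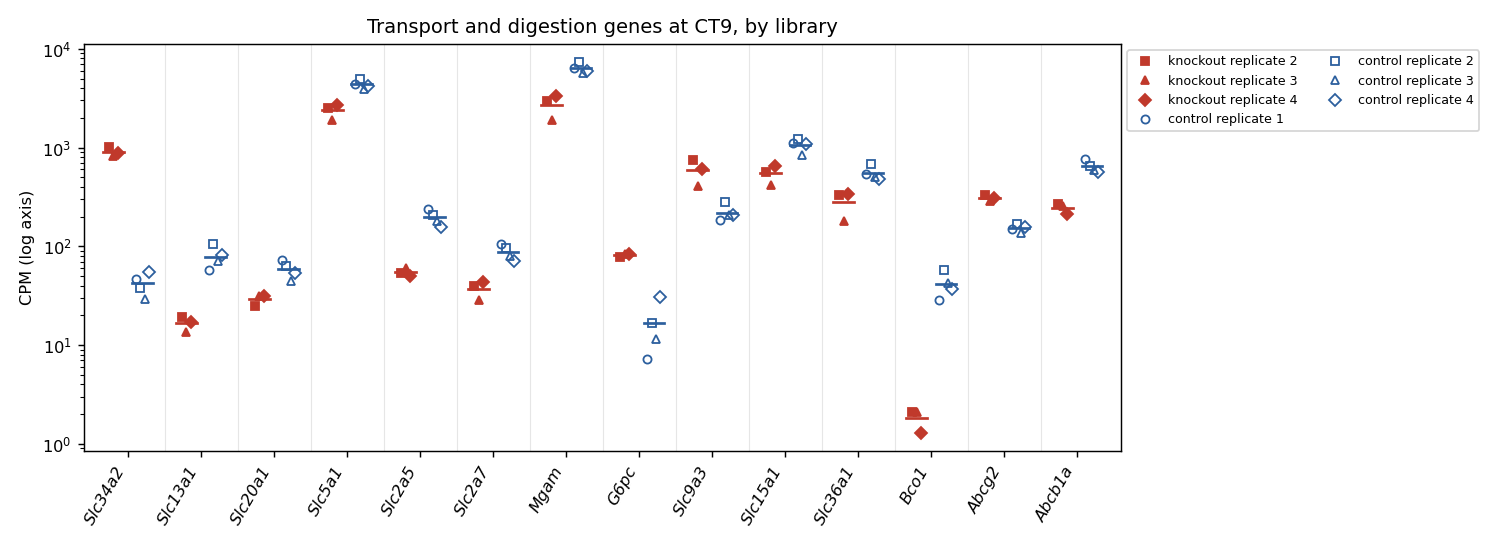
Level of 14 transport and digestion genes at CT9 in CPM (log axis), with 1 point per library and bars at the group means. Slc34a2, G6pc, Slc9a3 and Abcg2 were higher in each knockout library than in each control library, and the other 10 genes lower.

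Among 27 genes that serve fat uptake and lipoproteins there were 1 rise and 2 falls (median −0.04), against 1.49% and 2.11% of all genes. Angptl4, a secreted inhibitor of lipases, measured 64.4, 41.4 and 122 CPM in knockout, against 2.36, 15.4, 7.51 and 26.1 CPM in control. Angptl4 thus rose (log2 fold change 2.56, SE 0.60, adjusted p = 0.0089), and without knockout replicate 4 its adjusted p was 0.11. Dgat2, which makes triglycerides, averaged 216 ± 28.9 CPM in knockout and 420.4 ± 90.8 CPM in control (log2 fold change −0.96, SE 0.21, adjusted p = 0.0031). The cholesterol exporter gene Abca1 averaged 54.4 ± 22.9 CPM in knockout and 142 ± 32.96 CPM in control (log2 fold change −1.39, SE 0.39, adjusted p = 0.033), though without knockout replicates 3 and 4 or control replicates 1 and 2 in turn its adjusted p was 0.087 to 0.286. Of 24 genes of sterol and fatty acid synthesis only Insig2, which holds back sterol synthesis, passed (0.46, SE 0.14, adjusted p = 0.047), and without knockout replicates 2, 3 and 4 or control replicates 1, 2 and 3 in turn its adjusted p was 0.086 to 0.209. The bile acid receptor gene Nr1h4 (FXR) rose, at 52.98 ± 4.80 CPM in knockout and 32.1 ± 3.88 CPM in control (log2 fold change 0.72, SE 0.13, adjusted p = 2.9e-04), and the conjugate exporter Abcc2 fell (log2 fold change −1.14, SE 0.31, adjusted p = 0.026), though without knockout replicates 2, 3 and 4 or control replicates 1 and 2 in turn its adjusted p was 0.050 to 0.167; the other 4 measured genes of that list did not pass.

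Bco1 (on chromosome 8, positions 117095854 to 117133720, plus strand), which cleaves beta-carotene to retinal, measured 2.08, 2.08 and 1.29 CPM in knockout, against 28.3, 58.03, 42.5 and 37.03 CPM in control. It was 22.8 times higher in control by the means, the largest fall among the named genes whose call no left-out library ended (log2 fold change −4.48, SE 0.65, adjusted p = 1.1e-05). Rdh7, a retinol dehydrogenase, was the other call among 14 retinoid genes (log2 fold change 0.80, SE 0.22, adjusted p = 0.022), and without knockout replicates 3 and 4 or control replicates 1, 2 and 3 in turn its adjusted p was 0.054 to 0.133. Of 37 genes of xenobiotic metabolism and efflux, 5 rose and 3 fell (median 0.23), against 1.49% and 2.11% of all genes. Without control replicate 4, 7 rose, and without each other CT9 library in turn only 2 or 3 did. The number that fell was then 2 or 3. The efflux pump gene Abcg2 (BCRP) measured 328, 289 and 305 CPM in knockout, against 150.3, 168, 136 and 155 CPM in control. Abcg2 thus rose (log2 fold change 1.01, SE 0.12, adjusted p = 3.2e-08). Abcb1a (P-glycoprotein), another efflux pump, measured 266, 259 and 214 CPM in knockout, against 772, 648, 598 and 568 CPM in control. Abcb1a thus fell (log2 fold change −1.39, SE 0.28, adjusted p = 0.0016). Both pairs of groups stood apart. The carboxylesterase gene Ces2b rose (log2 fold change 2.43, SE 0.35, adjusted p = 5.8e-06) and Cyp2u1, of the cytochrome P450 family, fell (log2 fold change −1.52, SE 0.30, adjusted p = 7.5e-04).

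Stress and defence genes gave few calls. The counts below stand against 1.49% of all genes called higher and 2.11% called lower. Of 25 genes of the endoplasmic reticulum stress list, Herpud1, which serves the degradation of misfolded proteins, measured 74.4, 71.2 and 68.6 CPM in knockout, against 143, 188, 149 and 181 CPM in control. Herpud1 thus fell (log2 fold change −1.21, SE 0.15, adjusted p = 1.9e-07), and Trib3, a pseudokinase induced by that stress, averaged 4.27 ± 0.836 CPM in knockout and 15.7 ± 4.88 CPM in control (log2 fold change −1.87, SE 0.34, adjusted p = 3.3e-04). Of 18 Paneth and antimicrobial genes, the lectins Reg3a and Reg1 rose. Reg3a measured 553, 656 and 696 CPM in knockout, against 189.7, 170.4, 173 and 355 CPM in control. Reg3a thus rose (log2 fold change 1.51, SE 0.32, adjusted p = 0.0024), and Reg1 stood at 359.8 ± 51.7 CPM in knockout and 153 ± 46.97 CPM in control (log2 fold change 1.23, SE 0.33, adjusted p = 0.023), though without knockout replicates 2, 3 and 4 or control replicates 1, 2 and 3 in turn its adjusted p was 0.050 to 0.11. Of 8 measured cornified envelope and barrier genes 3 rose, the near-identical Sprr2a1, Sprr2a2 and Sprr2a3, whose reads may have been shared or dropped in counting, and which had log2 fold changes of 3.79, 2.35 and 1.90. For Sprr2a3, without knockout replicates 2 and 4 or control replicate 3 in turn its adjusted p was 0.051 to 0.078. Of 15 immediate early genes Fosb alone passed (log2 fold change 2.55, SE 0.59, adjusted p = 0.0069), and without knockout replicate 4 its adjusted p was 0.131. Per1 was the only call among 17 glucocorticoid-responsive genes.

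Further large rises came from genes of other groups, beside 1.49% of all genes called higher. Cldn8, a claudin of tight junctions and the only call among 18 genes of that list, measured 5.37, 4.75 and 6.28 CPM in knockout, against 0, 0, 0.319 and 0.337 CPM in control. Cldn8 thus rose (log2 fold change 4.85, SE 0.57, adjusted p = 5.3e-08). Ypel2, of a conserved family of little-known function, measured 76.7, 84.3 and 46.2 CPM in knockout, against 10.8, 6.96, 12.8 and 11.95 CPM in control. Ypel2 thus rose (log2 fold change 2.7, SE 0.29, adjusted p = 1.3e-08). Sucnr1, the succinate receptor and the only call among 14 tuft cell and succinate genes, averaged 7.17 ± 1.85 CPM in knockout and 1.04 ± 0.264 CPM in control (log2 fold change 2.75, SE 0.38, adjusted p = 2.3e-06). Adad2 (3.61), Hapln4 (2.90) and Flvcr2, a transporter of the heme carrier family (2.62), also rose, with groups that did not overlap. Another 2 rises as large were of predicted genes, which are counted only. The control libraries together held 4 counts of Cldn8, 5 of Adad2 and 17 of Hapln4, so the fold changes of these genes carry wide counting error. Tns4, a tensin, measured 14.02, 17.4 and 11.1 CPM in knockout, against 165, 141, 96.1 and 54.04 CPM in control. Tns4 thus fell (log2 fold change −3.00, SE 0.28, adjusted p = 1.8e-10).

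The marker lists of immune cells held many of the lower genes, and these counts turned on single libraries. Of 29 measured genes of T cells and intraepithelial lymphocytes, 16 fell (median −1.31), as did 9 of 13 MHC class II genes (median −1.65), 11 of 47 interferon and MHC class I genes (median −0.58) and 14 of 18 follicle B cell genes (median −2.42), and none of these rose. Without control replicate 1 the counts were 6 of 29, 0 of 12, 3 of 47 and 1 of 15 (medians −1.05, −1.30, −0.42 and −1.09). Without control replicate 4 they were 25, 9, 20 and 15, and without knockout replicate 4 they were 1, 0, 0 and 2. In a fit to the CT9 libraries alone they were 2, 0, 1 and 0. The count of lower genes over all genes moved too, from 330 (2.11%) to 129 (0.827%) without control replicate 1. It was 479 without control replicate 4, 113 without knockout replicate 4 and 207 in the CT9 libraries alone. Over the other 5 times, 28, 11, 34 and 8 members of these lists were lower, in a contrast that called 21.7% of all genes (9.91% lower).

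Follicle B cell genes stood far higher in control replicate 1 than in any other library. Their summed level was 53.3, 59.2 and 39.5 CPM in knockout, against 810.0, 89.6, 104 and 61.3 CPM in control, so that the other 3 control libraries lay above the knockout range but far nearer to it, and control replicate 4 only just above it. Ms4a1 (CD20) measured 0.173, 0.148 and 0.370 CPM in knockout, against 37.1, 1.02, 0.958 and 0.842 CPM in control. Ms4a1 thus fell (log2 fold change −5.34, SE 1.38, adjusted p = 0.018), and without control replicate 1 the log2 fold change was −1.96, adjusted p = 0.791. Ighd, the delta heavy chain of naive B cells, measured 0.519, 0.297 and 0.554 CPM in knockout, against 66.8, 2.04, 1.92 and 1.18 CPM in control. Pax5, which sets B cell identity, measured 0.173, 0.148 and 0.185 CPM in knockout, against 29.7, 0.848, 0.639 and 0.673 CPM in control and was not measurable under the filter without that library. Cr2, the complement receptor of B cells and follicular dendritic cells, was at 0 in all 3 knockout libraries and in control replicate 4; against a floor of 3 counts over the group it was at least 44.9-fold lower, of which control replicate 1, at 28.2 CPM, carried nearly all. Pou2af1, a B cell coactivator also used by plasma cells, was the 1 gene of the list that passed without that library, at 5.37, 6.38 and 4.62 CPM in knockout, against 37.97, 12.9, 20.4 and 10.4 CPM in control. Pou2af1 thus fell (log2 fold change −1.89, SE 0.32, adjusted p = 9.6e-05; −1.41, adjusted p = 0.0027 without it), although in a fit to the CT9 libraries alone its adjusted p was 0.128. Other genes with the same shape were Cxcl13, Cd79a, Cd79b, Cd22, Cd37, Fcer2a, Ighm, Ltb, Siglecg, H2-Eb2 and H2-Ob: all had their highest value in control replicate 1 and lost their call or could not be fitted without it.

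T cell genes showed another split. The summed level of their list was 217, 198 and 123 CPM in knockout, against 559, 556, 467 and 189 CPM in control. Control replicate 4 lay inside the knockout range, and control replicates 1, 2 and 3 lay above it. Itgae (CD103), which holds lymphocytes in the epithelium, measured 15.6, 12.8 and 8.50 CPM in knockout, against 41.7, 36.8, 30.98 and 14.3 CPM in control, with that overlap (log2 fold change −1.33, SE 0.28, adjusted p = 0.0025). Il2rb, the beta chain of the interleukin 2 receptor, measured 8.83, 7.27 and 6.84 CPM in knockout, against 20.8, 19.9, 15.97 and 10.3 CPM in control and did not overlap (log2 fold change −1.13, SE 0.24, adjusted p = 0.0030). The gamma delta receptor gene Tcrg-C1 (log2 fold change −1.11, SE 0.25, adjusted p = 0.0045) and the beta chain gene Trbc1 (log2 fold change −1.48, SE 0.36, adjusted p = 0.010) also fell. Of these 4, Trbc1 lost its call without control replicate 1 (−1.07, adjusted p = 0.13), and Itgae, Tcrg-C1 and Trbc1 lost it without knockout replicate 4 (adjusted p = 0.058, 0.067 and 0.112). Zap70, Lck, Trbc2, Cd8a, Cd4, Cd3d, Cd7, Gzma and Gzmb passed with all libraries, at log2 fold changes of −1.70 (Zap70) to −0.74 (Cd4). None of them passed without control replicate 1, and none passed without knockout replicate 4.

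MHC class II genes showed the same split. Their summed level was 1189.8, 1279 and 983 CPM in knockout, against 4620.4, 3209.6, 3954 and 1259 CPM in control. Control replicate 4 again lay inside the knockout range. Cd74, the invariant chain, measured 391, 438 and 293 CPM in knockout, against 1860.3, 1300.5, 1658 and 424 CPM in control. Cd74 thus fell (log2 fold change −1.81, SE 0.44, adjusted p = 0.011; −1.59, adjusted p = 0.054 without control replicate 1). H2-Aa (−1.75, adjusted p = 0.0097), H2-Ab1 (−1.72, adjusted p = 0.012), H2-Eb1 (−1.43, adjusted p = 0.014), H2-DMa (−1.65, adjusted p = 0.014), H2-DMb1 (−1.94, adjusted p = 0.016) and Ciita, the master regulator of these genes (−1.59, adjusted p = 0.014), had the same overlap with control replicate 4. H2-DMb2 stood at 27.7 CPM in control replicate 1 and at most 5.27 CPM in the other libraries (−1.84, adjusted p = 0.027).

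Among the 11 interferon and MHC class I genes that fell, single libraries again decided most calls. Iigp1, an interferon-induced GTPase, measured 12.98, 18.8 and 13.1 CPM in knockout, against 46.1, 42.9, 47.4 and 23.1 CPM in control. Iigp1 thus fell (log2 fold change −1.41, SE 0.32, adjusted p = 0.0061), and without knockout replicate 4 its adjusted p was 0.067. Ubd, a ubiquitin-like protein of inflamed epithelium and of the epithelium over follicles, measured 2.60, 1.19 and 1.11 CPM in knockout, against 46.7, 65.8, 58.3 and 2.69 CPM in control. Control replicate 4 was near the knockout libraries and the other 3 control libraries were far above (log2 fold change −4.72, SE 1.10, adjusted p = 0.0086); without knockout replicates 3 and 4 in turn its adjusted p was 0.067 to 0.070. It was the only call among 13 genes of follicle-associated epithelium and M cells. The chemokine gene Cxcl9 passed with and without control replicate 1 (log2 fold change −1.05, SE 0.26, adjusted p = 0.011; −0.99, adjusted p = 0.049), but without knockout replicates 3 and 4 in turn its adjusted p was 0.083 to 0.105. Zbp1, Gbp2, Gbp3, Gbp6, Cxcl10, Nlrc5 and Irgm2 passed with all libraries, at log2 fold changes of −1.62 (Zbp1) to −0.57 (Gbp3). None of them passed without control replicate 1, and none passed without knockout replicate 4. The summed level of the 47 genes was 6057, 5280.0 and 5371 CPM in knockout, against 8967, 8233, 6975 and 5717 CPM in control.

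Of 18 myeloid and mast cell genes, Lyz2 (log2 fold change −0.77, SE 0.18, adjusted p = 0.0075) and Flt3 (log2 fold change −0.99, SE 0.29, adjusted p = 0.038) fell, against 2.11% of all genes. Without control replicate 1 or knockout replicate 4 in turn, the adjusted p of Lyz2 was 0.083 to 0.084. Without knockout replicates 2, 3 and 4 or control replicates 1, 2 and 3 in turn, that of Flt3 was 0.051 to 0.215. None of 13 plasma cell genes passed (median −0.84), although their summed level, 4244, 4396 and 3340.2 CPM in knockout, against 8226, 5346, 9036 and 5578 CPM in control, did not overlap. Igkv4-79, 1 immunoglobulin light chain segment, stood at 53.8 CPM in control replicate 2 and at most 6.24 CPM elsewhere (log2 fold change −5.04, SE 1.37, adjusted p = 0.027); without knockout replicates 2, 3 and 4 or control replicate 2 in turn its adjusted p was 0.098 to 0.473. Ceacam10 (log2 fold change −3.43, SE 0.91, adjusted p = 0.022) and Ano3, a membrane protein of the anoctamin family (log2 fold change −3.05, SE 0.84, adjusted p = 0.030), were further falls that each lost its call without 5 of the 7 CT9 libraries, taken in turn (adjusted p = 0.070 to 0.126 and 0.054 to 0.165).

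**Figure D3:**
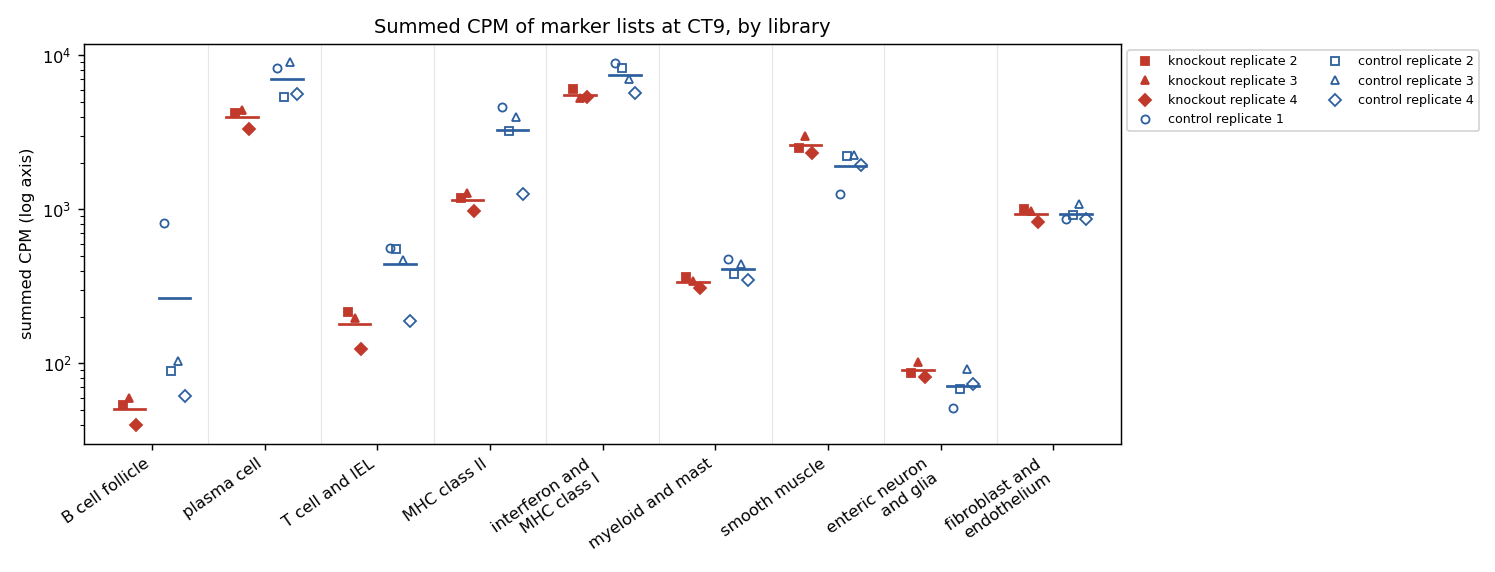
Summed level of 9 marker lists at CT9 in CPM (log axis), with 1 point per library and bars at the group means. Control replicate 1 stands alone in the follicle B cell list at 810 CPM, and control replicate 4 lies with the knockout libraries in the T cell list, at 189 CPM, and in the MHC class II list, at 1259 CPM.

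Smooth muscle transcripts were higher in knockout without a call with all libraries. Their summed level was 2515, 3006 and 2334 CPM in knockout, against 1252, 2206, 2248 and 1937 CPM in control, and 8 of the 12 genes did not overlap and were higher in knockout, against 6.61% of all genes, but 0 passed in edgeR (median 0.41; 0.24 without control replicate 1, which was the lowest library). Without the 5 libraries of other times that stood apart, 4 passed as higher. The part of these differences in tissue make-up in the epithelial results was not tested. Enteric neuron and glia genes (12 measured), fibroblast and endothelium genes (14), adipocyte genes (9), erythroid genes (4) and pancreatic acinar genes (2) had no call with all libraries. Neither had stem cell (14), goblet cell (11), enteroendocrine (18), cell cycle (30), heat shock (19), iron handling (13), respiratory chain (21) or fatty acid oxidation genes (22). Under some alternatives 1 or 2 genes in a direction passed in the plasma cell, stem cell, enteroendocrine, iron handling and fatty acid oxidation lists.

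The effect at CT9 was then set against the mean effect at the other 5 times. The difference passed for 53 genes (0.339%), 26 more positive at CT9 (0.166%) and 27 more negative (0.173%). Of these, 50 were also called at CT9 itself, and 51 had the larger effect there. Without control replicate 1 there were 31 (16 and 15), and without knockout replicate 3 there were 22 (14 and 8), so the counts moved by over 1.5 times with single libraries. Of all 563 genes called at CT9, 456 were called in the same direction in the mean of the other times, which is 81% of the CT9 calls and 13.5% of the 3389 calls at the other times.

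Among clock genes the difference passed for Arntl, given above, for Npas2 and Nfil3 upwards, and for Dbp, Tef and Usp2 downwards. The log2 fold change of Nfil3 was 2.10 at CT9 and 0.53 in the mean of the other times (difference 1.57, SE 0.28, adjusted p = 0.0014). That of Npas2 was 2.07 at CT9 and 1.00 in the mean of the other times (difference 1.07, SE 0.18, adjusted p = 9.5e-04). Dbp gave −2.26 at CT9 and −0.52 in the mean of the other times (difference −1.74, SE 0.25, adjusted p = 4.0e-05), and Tef −1.45 at CT9 and −0.35 in the mean of the other times (difference −1.10, SE 0.15, adjusted p = 3.2e-05). Knockout Dbp peaked at CT9, with means ± SD of 2.44 ± 0.704 (CT1), 5.09 ± 0.513 (CT5), 16.1 ± 4.95 (CT9), 10.1 ± 1.83 (CT13), 2.33 ± 0.646 (CT17) and 1.94 ± 0.652 (CT21) CPM (n = 4 each, 3 at CT9). Control Dbp peaked there too but higher, with 1.02 ± 0.392 (CT1), 18.3 ± 2.47 (CT5), 77.2 ± 17.1 (CT9), 27.02 ± 7.19 (CT13), 3.41 ± 0.719 (CT17) and 1.89 ± 0.323 (CT21) CPM (n = 4 each). Usp2 gave −0.60 at CT9 and 0.22 in the mean of the other times (difference −0.82, SE 0.17, adjusted p = 0.011), and its difference lost the call without knockout replicate 2 or 3 in turn (adjusted p = 0.073 to 0.11). For Nr1d1, Nr1d2, Per3, Ciart, Cry1, Cry2 and Hlf the difference did not pass, at adjusted p of 0.068 (Per3) and above.

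Transport genes made up a further share. Slc34a2 gave 4.42 at CT9 and 2.10 in the mean of the other times (difference 2.32, SE 0.31, adjusted p = 3.2e-05). In knockout its mean was 815 ± 227 (CT1), 1144 ± 369 (CT5), 906 ± 103 (CT9), 642 ± 92.7 (CT13), 767 ± 117 (CT17) and 868 ± 159 (CT21) CPM, and in control 516 ± 83.3 (CT1), 326 ± 122 (CT5), 42.3 ± 10.96 (CT9), 15.5 ± 8.97 (CT13), 269 ± 61.1 (CT17) and 400.1 ± 113 (CT21) CPM. The knockout mean at CT9 thus lay within the range of its means at the other times, and control was lowest at CT13 and CT9. Slc5a1 gave −0.88 at CT9 and 0.08 in the mean of the other times (difference −0.96, SE 0.16, adjusted p = 5.7e-04). Its knockout level was 2263 ± 668 (CT1), 2716 ± 293 (CT5), 2379 ± 438 (CT9), 2976 ± 189.5 (CT13), 1648 ± 148 (CT17) and 2013 ± 203 (CT21) CPM. The control level was 1476 ± 117 (CT1), 2727 ± 183 (CT5), 4380.0 ± 428 (CT9), 3748 ± 28.3 (CT13), 1944 ± 232 (CT17) and 1548 ± 130.4 (CT21) CPM, with its highest mean at CT9. Slc2a5 gave −1.85 at CT9 and −0.42 in the mean of the other times (difference −1.42, SE 0.21, adjusted p = 5.5e-05), and G6pc, whose control level was lowest at CT9, gave 2.30 at CT9 and 0.67 in the mean of the other times (difference 1.63, SE 0.29, adjusted p = 0.0015). For Slc2a7 the effect was −1.25 at CT9 and −0.24 in the mean of the other times (difference −1.01, SE 0.20, adjusted p = 0.0070), and without control replicate 1 or knockout replicate 3 in turn its adjusted p was 0.050 to 0.154.

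**Figure D4:**
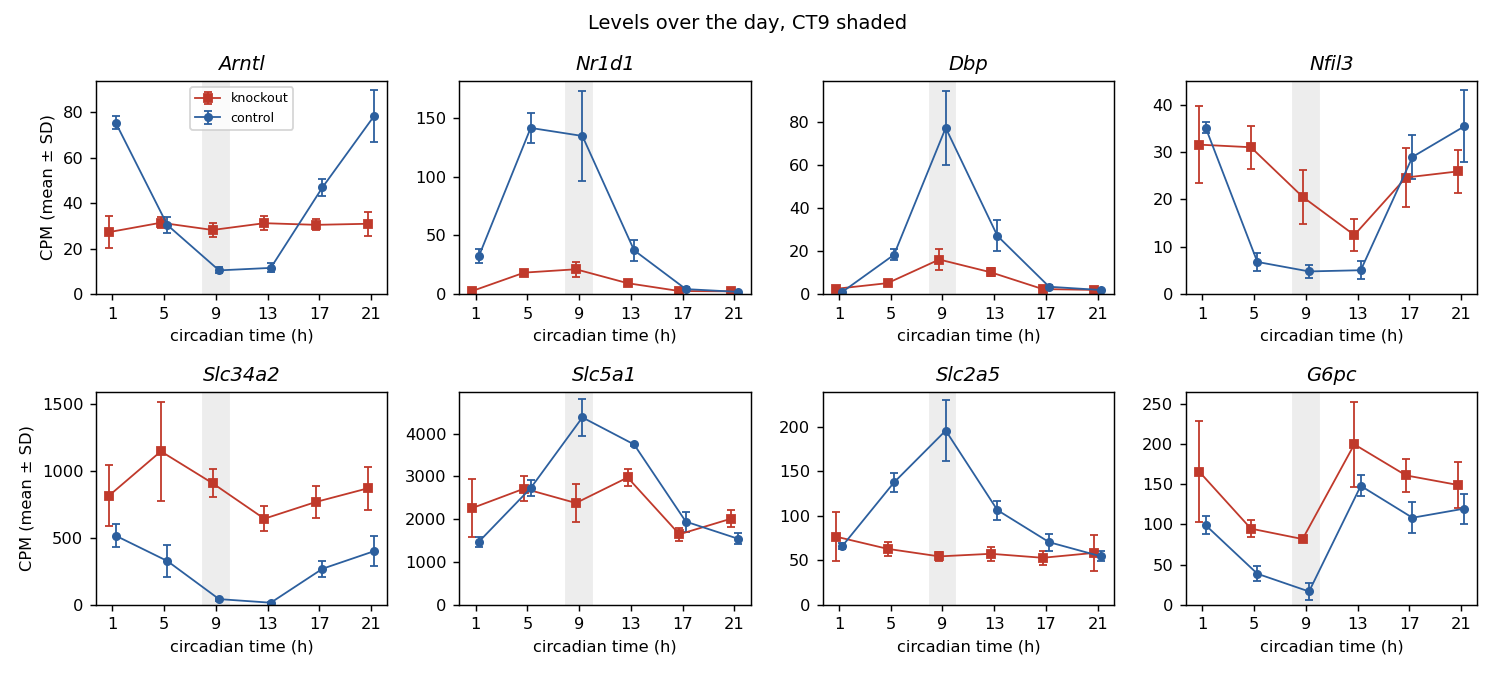
Mean level ± SD over libraries in CPM at 6 circadian times for 8 genes (red squares, knockout; blue circles, control; n = 4, except 3 for knockout at CT9, which is shaded). At CT9 control was at or near its daily low for Arntl, Nfil3, Slc34a2 and G6pc and at or near its daily high for Nr1d1, Dbp, Slc5a1 and Slc2a5, and knockout lay above control in the first 4 and below it in the others.

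The other named genes with a difference were Ypel2, Stk38, Ces1d, Tns4, Anxa7, Herpud1 and Cyp2u1. Ypel2 gave 2.7 at CT9 and 0.61 in the mean of the other times (difference 2.09, SE 0.31, adjusted p = 9.8e-05). Stk38, a kinase of the NDR family, measured 177, 186 and 168 CPM in knockout, against 104, 84.00, 98.7 and 105 CPM in control at CT9 and gave 0.86 at CT9 and 0.10 in the mean of the other times (difference 0.76, SE 0.11, adjusted p = 5.5e-05). Ces1d, a carboxylesterase, was the converse case: its libraries overlapped at CT9, at 25.1, 14.8 and 10.2 CPM in knockout, against 18.9, 22.4, 22.4 and 21.4 CPM in control (−0.35, adjusted p = 0.786), and its effect was −0.35 at CT9 and −2.38 in the mean of the other times (difference 2.03, SE 0.31, adjusted p = 1.5e-04). In control it was at its lowest mean at CT9, with 38.4 ± 9.23 (CT1), 23.6 ± 9.10 (CT5), 21.3 ± 1.64 (CT9), 122 ± 12.4 (CT13), 171 ± 50.8 (CT17) and 77.8 ± 27.3 (CT21) CPM. Tns4 gave −3.00 at CT9 and −1.38 in the mean of the other times (difference −1.62, SE 0.29, adjusted p = 0.0012) and Anxa7, an annexin, −1.17 at CT9 and −0.44 in the mean of the other times (difference −0.72, SE 0.11, adjusted p = 1.5e-04). Herpud1 (difference −0.79, SE 0.16, adjusted p = 0.0070) and Cyp2u1 (difference −1.45, SE 0.32, adjusted p = 0.020) lost the call without single libraries (adjusted p of up to 0.070 for Herpud1 and 0.139 for Cyp2u1).

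**Figure D5:**
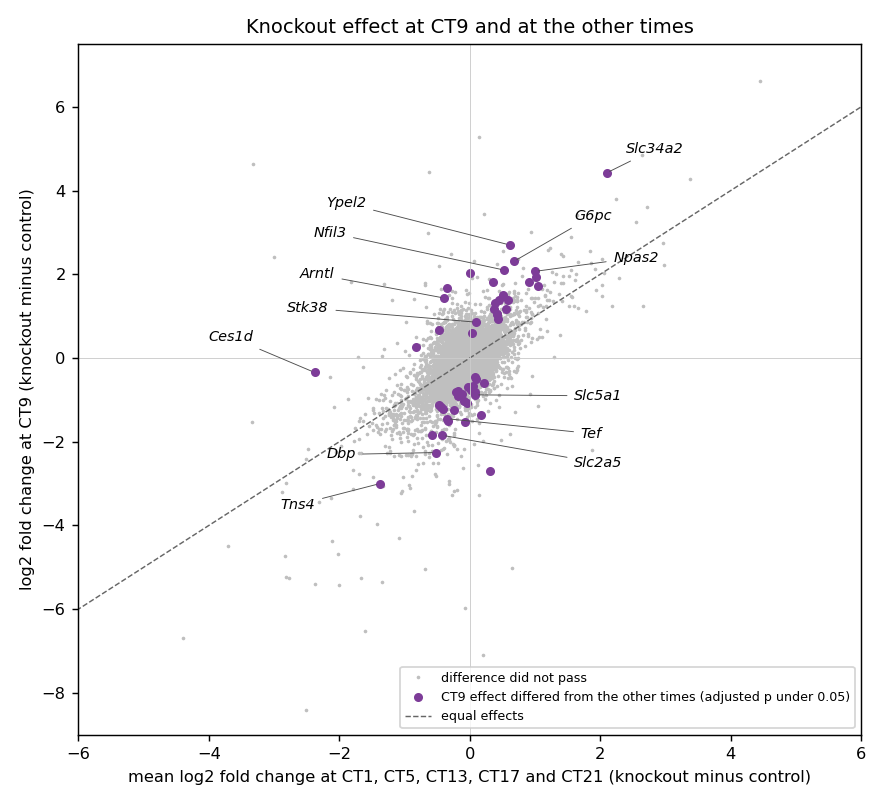
Log2 fold change of knockout minus control at CT9 (vertical axis) and in the mean of the other 5 times (horizontal axis) for 15646 genes, 1 point each. The 53 genes whose effects differed are purple; Slc34a2 and Arntl lie above the dashed line of equal effects and Dbp, Tef and Slc2a5 below it, while Ces1d lies near 0 at CT9 and at −2.38 at the other times.

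None of the immune genes named above passed for this difference. The lists of T cell, MHC class II, interferon and follicle B cell genes had 0 such calls, against 0.339% of all genes. In lists of this size 0 calls is near that share and says little about their members. Pou2af1, the closest of those described, had an adjusted p of 0.112. Against CT21 alone, 65 genes differed in effect (0.415%), 35 more positive at CT9 (0.224%) and 30 more negative (0.192%), and 31 had effects of opposite sign at the 2 times. This comparison uses the same CT9 libraries and is not independent of the one before. Nr1d1, which did not pass against the mean of the other times, passed here (difference −2.93, SE 0.42, adjusted p = 2.3e-05): its log2 fold change was −2.67 at CT9 and 0.26 at CT21, when its mean was 2.35 CPM in knockout and 1.91 CPM in control. Arntl (difference 2.77, SE 0.21, adjusted p = 1.9e-12), Nfil3 (difference 2.55, SE 0.34, adjusted p = 9.1e-06) and Slc34a2 (difference 3.30, SE 0.39, adjusted p = 1.1e-06) were more positive at CT9, and Tef (difference −1.37, SE 0.19, adjusted p = 2.1e-05), Slc2a5 (difference −1.94, SE 0.26, adjusted p = 9.1e-06), Slc2a7 (difference −1.84, SE 0.26, adjusted p = 2.3e-05) and Slc5a1 (difference −1.26, SE 0.20, adjusted p = 1.4e-04) more negative.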

How the data were processed

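RNA of whole mouse jejunum was sequenced from libraries made with a stranded mRNA kit, per the labels' protocols. The authors deposited raw counts per gene ID in 1 table of 55401 IDs and 47 libraries. Reads were handled with Trimmomatic 0.39, STAR 2.7.5c and featureCounts 1.4.6 against mm10, per the submitters' processing notes. How featureCounts dealt with strand and multi-mapping reads, and with which annotation, is not given in these sources, so values of near-identical or overlapping genes are uncertain. The table gives a column to 3 of the 4 knockout CT9 libraries of the labels.

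Replicate numbers follow accession order and pair nothing. Gene names and positions came from GENCODE M21 (54349 IDs matched with their version, 792 without, 260 not at all). Counts of all 47 libraries in 12 groups were filtered (edgeR 4.0.16 in R 4.3.3, minimum count 10, minimum total 15), scaled by TMM and fitted by the robust quasi-likelihood method with 35 residual degrees of freedom, and p-values were adjusted by Benjamini-Hochberg over 15646 genes at 0.05. The other times entered so that the spread rests on more than 7 libraries. Contrasts were knockout minus control at CT9, that effect minus the mean effect at the other 5 times, and that effect minus the CT21 effect. CPM use the TMM-scaled totals. Intervals (95%) and the floor of 3 counts cover counting error only. The code was tested on simulated data.

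Named genes were all clock activators, repressors and PAR bZIP genes, the 12 largest rises and 12 largest falls without overlap and at a mean of at least 1 CPM, predicted genes left out, up to 4 calls per list by adjusted p, the 6 lowest adjusted p in each direction of the difference from other times, and immune genes whose call turned on control replicate 1. These make 123 genes, of which a few are not reported here. The groups, the 41 lists (745 genes, 677 measured) and the rule were chosen with earlier results of these data known. Alternatives were upper quartile and RLE scaling, DESeq2 1.42.0, limma-voom 3.58.1, no filter, the CT9 libraries alone, leaving out 5 libraries of other times that stood apart, and leaving out each CT9 library. Promoter windows came from RefSeq.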

Additional observations from a re-analysis of the deposited data

Results flagged for a closer look

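With 4 libraries, a control library was counted as standing apart when its gap to the nearest other exceeded the 95% critical value of Dixon's test for its share of the range, which chance gives in about 1 of 20 groups. This held for 23 of the named genes, 17 of them in control replicate 1. Some immune genes were named because their call turned on that library, and some large falls rested on it. These counts therefore cannot be set against that rate. In control replicate 1 the high values were Pax5 (29.7 CPM), Ms4a1 (37.1 CPM), Ighd (66.8 CPM), Siglecg (18.7 CPM), H2-Eb2 (19.4 CPM), H2-Ob (54.00 CPM), Cxcl13 (24.8 CPM), Cd79a (49.8 CPM), Cr2 (28.2 CPM), Cd4 (19.2 CPM), H2-DMb2 (27.7 CPM), Cd22 (48.9 CPM), Cd37 (48.8 CPM), Fcer2a (29.7 CPM), Cd79b (38.1 CPM) and Ighm (253 CPM), nearly all genes of B cells or antigen presentation, and Nr1d1 (192 CPM). The knockout libraries of these genes held no such value. Apart from them stood Igkv4-79 (53.8 CPM) in control replicate 2 and Aqp8 (0 CPM) in control replicate 3, where the other control libraries held 1 count each. In control replicate 4, Clock (102 CPM), Fbxl21 (2.53 CPM) and Reg3a (355 CPM) were the highest of the group and Cd8a (12.3 CPM) the lowest.

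The effect at CT9 differed from the mean effect at the other 5 times for 18 named genes, in edgeR's test of the difference itself (log2, CT9 minus other times). It was more positive at CT9 for Slc34a2 (2.32, adjusted p = 3.2e-05), Ypel2 (2.09, adjusted p = 9.8e-05), Ces1d (2.03, adjusted p = 1.5e-04), Arntl (1.82, adjusted p = 2.1e-09), G6pc (1.63, adjusted p = 0.0015), Nfil3 (1.57, adjusted p = 0.0014), Npas2 (1.07, adjusted p = 9.5e-04) and Stk38 (0.76, adjusted p = 5.5e-05). It was more negative at CT9 for Dbp (−1.74, adjusted p = 4.0e-05), Tns4 (−1.62, adjusted p = 0.0012), Cyp2u1 (−1.45, adjusted p = 0.020), Slc2a5 (−1.42, adjusted p = 5.5e-05), Tef (−1.10, adjusted p = 3.2e-05), Slc2a7 (−1.01, adjusted p = 0.0070), Slc5a1 (−0.96, adjusted p = 5.7e-04), Usp2 (−0.82, adjusted p = 0.011), Herpud1 (−0.79, adjusted p = 0.0070) and Anxa7 (−0.72, adjusted p = 1.5e-04). Usp2, Slc2a7, Cyp2u1 and Herpud1 lost the call without single CT9 libraries, and the others listed kept it without each CT9 library in turn.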

How the results depend on the processing

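Arntl kept its direction and its call under every alternative (1.35 to 1.48 on the log2 scale without single CT9 libraries), and no result reversed. Higher genes at CT9, 233 as reported, numbered 442 without 5 libraries of other times that stood apart (control CT21 replicate 1, knockout CT1 replicates 1, 2 and 3, knockout CT21 replicate 4) and 145 to 282 without single CT9 libraries. Lower genes, 330 as reported, numbered 587 without those 5, 207 in the CT9 libraries alone and 113 to 479 without single CT9 libraries. For the effect at CT9 minus that at the other times, the more positive genes (26) numbered 54 without the 5, 15 with no filter and 13 to 22 without single CT9 libraries, and the more negative genes (27) numbered 56 without the 5 and 8 to 24 without single CT9 libraries. Against CT21, the more positive genes (35) numbered 66 without the 5 and 22 to 32 without single CT9 libraries, and the more negative genes (30) numbered 52 without the 5, 49 by DESeq2 and 17 to 31 without single CT9 libraries. Leaving out libraries also lowers the number of samples tested; beyond that the cause was not tested.

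Of 118 named genes called at CT9, 47 kept the call in every alternative that fitted them. Calls lost numbered 62, 48 and 37 without knockout replicates 4, 3 and 2, and 51, 19, 16 and 1 without control replicates 1, 2, 3 and 4. They numbered 51 of 111 in the CT9 libraries alone, 35 by limma-voom, 26 with no filter, 1 with RLE scaling, 0 of 116 by DESeq2 and 0 with upper quartile scaling or without the 5 libraries. DESeq2 gave no adjusted p for Ms4a1 and Ighd, so neither held a call there. Among the calls outside the lists of immune cells that the fit to the CT9 libraries alone ended were those of G6pc, Angptl4, Slc36a1, Abca1, Rdh7, Ceacam10, Ano3, Siglecg and H2-Eb2. Those that the fit with no filter ended were Per1, Abca1, Insig2, Abcc2, Reg1, Ceacam10, Ano3, Igkv4-79 and H2-Eb2. Without the 5 libraries, lower genes numbered 11 in the peptide and amino acid list (4 as reported), 7 in the sodium, chloride, proton and water list (3) and 4 in the fat list (2), and higher genes 4 in the tight junction list (1). No paired analysis was possible because the labels give no replicate numbers. With 3 knockout libraries of 5.46 to 6.36 M counts, genes near the floor carry wide counting error.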
